A study of Mus musculus with 3 samples.

Results

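This account describes crosslink positions, from an experiment on ZFP36L1, in transcripts of the BTG/TOB factors and of deadenylase subunits. The members were taken by name from a single list of crosslink positions, and all segment types were kept. Of 10 names, 9 were found exactly (Btg1, Btg2, Tob1, Cnot1, Cnot2, Cnot6, Cnot6l, Cnot7 and Pan3), among 14592 gene names in the list. The 9 genes held 2338 of 462392 positions (0.506%) and a summed count of 3949 of 814493 (0.485%). Tob2 was listed under a name that joins its symbol to its Ensembl identifier, as 126 names in the list were, and its 30 positions are described beside the others but stay out of the totals unless stated.

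The positions came from individual-nucleotide resolution crosslinking and immunoprecipitation (iCLIP), which maps the base at which a protein touched RNA. Whole naive thymocytes of C57BL/6JBabr mice were exposed to ultraviolet light at 300 mJ/cm2, and the complexes were recovered with an antibody against Brf1/2, older names of ZFP36L1 and ZFP36L2, so a position cannot be assigned to ZFP36L1 alone. WT cells gave 2 libraries from separate experiments. Cells labelled DCKO gave 1 library. The labels give only this abbreviation, taken here as the double conditional knockout of Zfp36l1 and Zfp36l2. The labels name no Cre driver, age or number of animals. Values in the list are not split by library, and the sources used here do not state which of the 3 libraries were pooled into it. No value below therefore has a replicate error, and WT and DCKO cells were not compared. Counts from DCKO cells may be among the values.

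ZFP36 proteins bind AU-rich elements in 3′ UTRs and recruit the CCR4-NOT complex, which shortens poly(A) tails and starts mRNA decay. CNOT1 is the scaffold of that complex and CNOT2 a core subunit. CNOT6 and CNOT6L are its CCR4-type nucleases, and CNOT7 is a CAF1-type nuclease. BTG1, BTG2, TOB1 and TOB2 are antiproliferative proteins that bind the CAF1 subunit and stimulate deadenylation, and BTG1 and BTG2 are known for keeping T cells quiescent. PAN3 is the partner through which the separate PAN2 deadenylase reaches its substrates.

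Each position carries a whole-number count, and a position with an authors' false discovery rate (FDR) score below 0.05 is called a site. Among the members' positions, a count of 1 stood at 48.1% and a count of 2 at 44.3%, leaving 178 positions (7.61%) with 3 or more, against 5.45% in the whole list. The sources used here do not give how counts were weighted. Markers of thymocytes were listed for 8 of 8 genes, from 11 counts for Ptcra to 3281 for Bcl11b. Marker sums of B cells, myeloid cells, epithelium and stroma were between 3 and 18 counts, with Cd79a, Csf1r, Foxn1 and Cdh5 at 0. Counts were not adjusted for transcript abundance, and few cells making a transcript and little RNA per cell cannot be told apart.

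Sequences at selected 3′ UTR clusters are given first, in 2 sets, because the results turn on them. They cover the leading cluster of each member with a site in the GENCODE 3′ UTR, and some weaker clusters. The weaker ones of Btg2, Tob2 and Cnot6 were those at a core. Not all clusters are printed, and Btg2 clusters of 16, 15 and 13 counts without a core nearby are left out. A cluster is a run of sites at most 15 nt apart. Each line shows 10 nt on either side of a cluster's strongest position, read 5′ to 3′ on the transcript strand. The sequence is from the GRCm38.p6 genome, with T for U. Where several positions of a cluster tied for the highest count, a single tied position is shown. In the first set, capitals mark the AU-rich core TATTTA, a short form of the element, and the middle base is the crosslinked position.
Btg2, chr1:134077239-134077258, minus strand: TATTTAtacatgttttttttt
Btg2, chr1:134076007-134076021, minus strand: gtgtgcaaTATTTActgttct
Tob2, chr15:81848921-81848948, minus strand: ttgcttctatttTATTTAatt
Tob2, chr15:81849866-81849873, minus strand: cctgctTATTTAtgtacgagg
Cnot6, chr11:49671574-49671588, minus strand: aactagctagtattaTATTTA

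In the second set no core lies in the printed window, and the capital marks the crosslinked base itself. These windows show the thymidine-rich tracts in Btg1, Tob1, Pan3 and Cnot6l, and the more mixed sequence in Cnot6, Cnot2 and Cnot7.
Btg1, chr10:96618775-96618798, plus strand: ataattttttTatttctttct
Tob1, chr11:94214791-94214795, plus strand: aagggggaacTttttttcttt
Pan3, chr5:147548046-147548064, plus strand: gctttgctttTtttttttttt
Pan3, chr5:147546555-147546588, plus strand: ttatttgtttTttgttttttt
Cnot6l, chr5:96076441-96076477, minus strand: tttccttttcCttttcccttt
Cnot6, chr11:49673364-49673399, minus strand: gttgggtttgTttgttgtgga
Cnot2, chr10:116485718-116485727, minus strand: ttctttttacTtcccctgtgt
Cnot7, chr8:40492923-40492930, minus strand: tatatagctaAtaaaattacc

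The BTG/TOB transcripts and the deadenylase transcripts differed in where their counts lay. Btg2 had 95.9% of its 196 counts in the 3′ UTR by the authors' label, Tob2 94.1% of 51, Tob1 84.6% of 13 and Btg1 78.9% of 57. The deadenylase transcripts were mostly intronic. Cnot2 had 95.6% of 1028 counts in introns, Cnot1 89.8% of 499, Cnot6l 85.6% of 554 and Pan3 79.7% of 1189. Cnot6 stood between the groups, with 30.5% of 321 counts in the 3′ UTR and 53.3% in introns. Cnot7 had 41.3% of 92 counts in introns and none labelled 3′ UTR. The groups' 3′ UTR shares did not overlap, but neither did their intron lengths. Introns span 0.528 kb in Btg1, 1.21 kb in Btg2, 1.75 kb in Tob1 and 6.37 kb in Tob2, against 19.5 kb in Cnot7, the shortest among the deadenylase genes, and 112.503 kb in Pan3, the longest. Over all 12541 protein-coding genes, the median share was 82.9% in introns and 0% in 3′ UTRs.

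**Figure D1:**
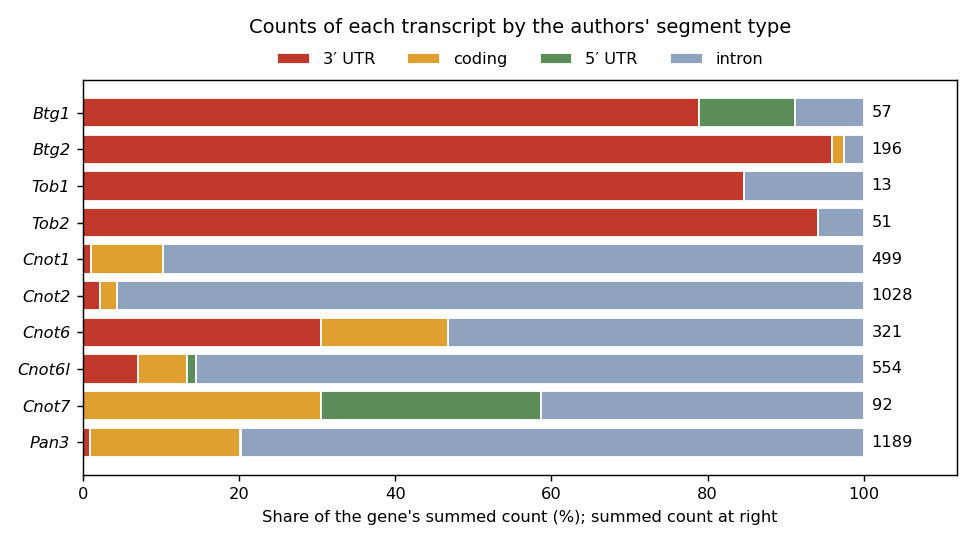
Share of each gene's summed count (%, horizontal axis) by the authors' segment type, with the summed count at the right of each bar. The 4 BTG/TOB genes lie at 78.9% to 95.9% in the 3′ UTR, and of the 6 deadenylase genes Cnot6 reaches 30.5%.

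By the authors' label, 6 of the 9 members had a 3′ UTR site, where 17.7% of protein-coding genes with any listed position did. The members' median summed count, 321, was above the 13 of those genes, and genes of like signal were not compared. Of their 230 positions labelled 3′ UTR, 87 were sites. That is 37.8% (95% Wilson interval 31.8 to 44.2), against a background of 37.8 percent of all 3′ UTR positions, so the share called was at the background. Cnot1, Cnot7 and Pan3 had no site by this label. Intervals here and below cover counting error only, and neighbouring sites of a cluster are not independent.

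Btg2 held the largest share of the members' 3′ UTR signal by label, with 107 site counts (53.8% of the 9 members' sum, interval 46.8 to 60.6). The gene (ENSMUSG00000020423) spans chr1:134075170-134079120 on the minus strand. Its 89 positions in a 3′ UTR of 2.20 kb held 188 counts, and 37 of them were sites. Among 2222 genes with a 3′ UTR site it ranked 48 by summed site count. Per kb of GENCODE 3′ UTR it had 16.8 sites and 85.5 counts. Of 6042 genes with a listed position in a GENCODE 3′ UTR, 137 had more sites per kb, and the median gene had 0 sites and 3.78 counts per kb. At the threshold, the highest FDR among its sites was 0.0372, and the lowest among its other 3′ UTR positions was 0.0761.

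The Btg2 sites fell into 5 clusters, of which the most upstream held the most signal. Its 14 sites within 20 nt held 54 counts, 50.5% of the gene's 3′ UTR site counts. The strongest position, 134077256, had a count of 8 and lay 113 nt into the 3′ UTR, with a TATTTA starting 10 nt upstream and a thymidine run just downstream, as the first printed sequence shows. TATTTA was within 20 nt of 12 of these sites, and all 14 lay near TTTTTT and in soft-masked sequence, the assembly's mark for repeats and low complexity. The other clusters held 16, 15, 13 and 9 counts. Only the one with 9 counts, 1348 nt into the 3′ UTR, lay near the core. Btg2 has 3 TATTTA elements in its 3′ UTR. The first had 12 sites and 51 counts within 20 nt, the second 5 sites and 9 counts, and the third, 1580 nt in, had no listed position.

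Btg1, the closest paralogue of Btg2, showed a different context. The gene (ENSMUSG00000036478, chr10:96617006-96622809, plus strand) had 23 positions and 45 counts in a 3′ UTR of 4.17 kb, with 17 sites in 3 clusters. The main cluster of 8 sites and 21 counts peaked at position 96618795, 152 nt into the 3′ UTR, with a count of 7. None of the 17 sites lay near TATTTA (upper Wilson bound 18.4%), and 10 lay near TTTTTT. The single TATTTA of this 3′ UTR, 1906 nt in, had no listed position within 20 nt. At 4.08 sites per kb, Btg1 was sparser than Btg2.

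Tob1 and Tob2 had few positions, and nearly all were in the 3′ UTR. In Tob1 (ENSMUSG00000037573, chr11:94211454-94215495, plus strand), 5 neighbouring sites with counts of 1 or 2 summed to 7, starting 63 nt into a 3′ UTR of 0.767 kb. All 5 lay near TTTTTT and none near its single TATTTA, 243 nt in. Tob2 (ENSMUSG00000048546, chr15:81848272-81858796, minus strand) had 12 sites and 25 counts, and every one lay within 20 nt of TATTTA (lower bound 75.8%). They formed 2 clusters, one at each of the 2 TATTTA elements of its 3′ UTR, with 19 and 6 counts. The stronger cluster peaked at position 81848936 with a count of 6. Within this family, then, all Tob2 sites and 17 of 37 Btg2 sites were near the core, and no Btg1 or Tob1 site was.

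**Figure D2:**
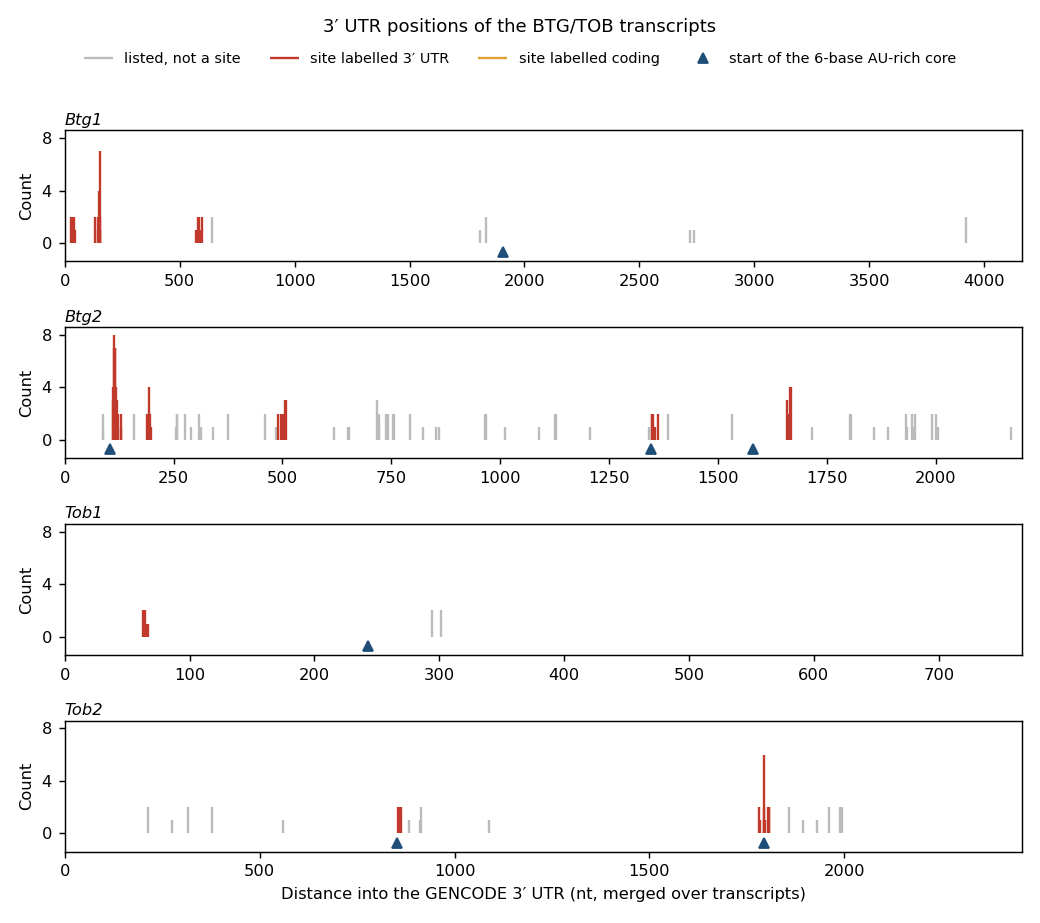
Count at each listed position (vertical axis) against the distance into the GENCODE 3′ UTR in nt (horizontal axis) for the BTG/TOB transcripts, with sites coloured by the authors' label, other positions in grey and triangles at each TATTTA. Signal of Btg2 peaks at a count of 8 close to its first triangle, Tob2 has a cluster at each of its 2 triangles, and the triangles of Btg1 and Tob1 have none.

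Among the CCR4-type nucleases, Cnot6 carried more 3′ UTR signal than its paralogue Cnot6l by label. Cnot6 (ENSMUSG00000020362, chr11:49671503-49712723, minus strand) had 62 labelled positions with 98 counts, of which 17 were sites with 30 counts. Cnot6l (ENSMUSG00000034724, chr5:96070333-96164171, minus strand) had 27 positions with 39 counts and 7 sites with 11. With an FDR below 0.01 Cnot6l kept 4 labelled sites with 7 counts. None of its sites labelled 3′ UTR had a count of at least 3. Counted within the GENCODE 3′ UTR, which adds sites the authors labelled coding, Cnot6 had 21 sites (5.69 per kb) and Cnot6l 15 (2.19 per kb). Whether this order holds in each library was not tested, since the libraries cannot be separated.

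Most Cnot6 sites lay where only the longer annotated 3′ UTR reaches. GENCODE gives Cnot6 a 3′ UTR of 480 nt in one transcript and 3690 nt in another. The short form held 4 sites with 9 counts, and 17 sites with 30 counts lay beyond it. The largest cluster, 10 sites and 18 counts, lay 1809 nt in and had no core nearby. A cluster of 6 sites and 10 counts at 3605 nt, close to the end of the long form, was the one at a TATTTA. In Cnot6l, 8 sites lay within a form of 1443 nt and 7 beyond it, in a form of 6847 nt. Its 3′ UTR holds 7 TATTTA elements, more than any other member, yet none had a site within 20 nt and 2 had a listed position only. Of its 15 sites, 8 lay near TTTTTT.

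Cnot1, Cnot2 and Cnot7 had little 3′ UTR signal. Cnot1 (ENSMUSG00000036550, chr8:95719451-95807464, minus strand) had 3 positions with 5 counts there and no site, and its 3′ UTR has no TATTTA. Cnot2 (ENSMUSG00000020166, chr10:116485161-116581511, minus strand) had 4 sites with 8 counts in 1 cluster, none near either of its 2 cores. Cnot7 (ENSMUSG00000031601, chr8:40492540-40515847, minus strand) had no position labelled 3′ UTR. Of its positions labelled coding, 12 with 20 counts lay in the GENCODE 3′ UTR, among them 2 sites with counts of 2 each and no core nearby. Its largest exonic cluster was in the 5′ UTR, where 5 sites with 9 counts at chr8:40510486-40510502 lay on a thymidine tract, shown here with the strongest position in capitals.
Cnot7 5′ UTR, minus strand: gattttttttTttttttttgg

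Pan3 depended most on the segment label. The gene (ENSMUSG00000029647, chr5:147430161-147548502, plus strand) had 6 positions labelled 3′ UTR, with 11 counts and no site. It had 103 positions labelled coding, with 228 counts and 64 sites. Of those, 53 positions with 149 counts, 43 of them sites with 133 counts, lay in a GENCODE 3′ UTR of Pan3. All 53 lay upstream of the most downstream stop codon annotated for any Pan3 transcript, so they are 3′ UTR in some transcripts and before the stop codon in another. Counted as 3′ UTR they gave 15.7 sites and 58.5 counts per kb, and Pan3 ranked 31 of 2409 genes by summed site count, above Btg2 at 54.

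Those Pan3 sites lay in 5 clusters. The strongest, 14 sites and 59 counts, peaked at position 147548050 with a count of 6, and the next held 18 sites and 42 counts. The other clusters held 14, 10 and 8 counts. TTTTTT was near 37 of the 43 sites (86.0%, interval 72.7 to 93.4) and TATTTA near 2 (4.65%, 1.28 to 15.5). Both leading clusters lay wholly in soft-masked sequence. Another 32 coding-labelled Pan3 positions lay in introns of the main transcripts, of which 31 are exonic in annotated retained-intron transcripts. Their largest cluster, chr5:147531330-147531364, had 13 sites and 23 counts.

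**Figure D3:**
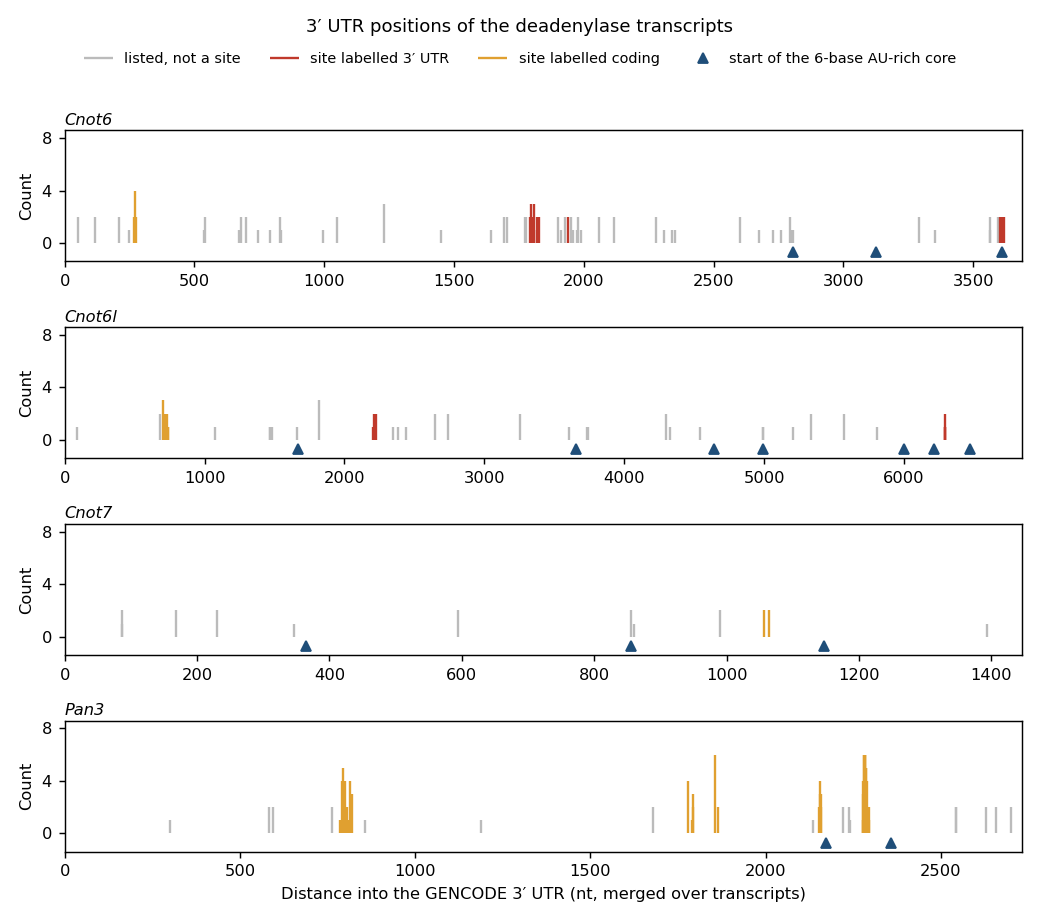
Count at each listed position (vertical axis) against the distance into the GENCODE 3′ UTR in nt (horizontal axis) for 4 deadenylase transcripts, drawn as for the BTG/TOB genes. The Pan3 sites, with counts of up to 6, carry the coding label throughout, and the 7 triangles of Cnot6l stand apart from its sites.

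The label mattered for the members together. Of 216 positions they had under the coding label, 78 were sites (36.1%), where 19.4% of all coding-labelled positions were. Pan3 gave 103 of these positions and 64 of these sites, so the pooled share rested mostly on that gene. Cnot6l had 8 sites among 22 positions, Cnot6 4 among 30 and Cnot7 2 among 18. Btg2, Cnot1 and Cnot2 had coding-labelled positions but no such site. A coding-labelled site occurred in 4 of 9 members, Cnot6, Cnot6l, Cnot7 and Pan3, against 13.1% of protein-coding genes. None of the 78 sites lay in a GENCODE coding exon, 57 with 161 counts lay in a 3′ UTR, and 21 with 37 counts lay in introns, all of these in Pan3. Among the 75 coding-labelled positions that did lie in coding exons, none was a site. With GENCODE segments, 8 of 9 members had a 3′ UTR site, where 19.2% of genes did. Of the members' 3′ UTR positions 44.6% were then sites, against 38.8% of all, and 38.3% without Pan3.

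TATTTA was within 20 nt of 23 of the 87 labelled 3′ UTR sites (26.4%, interval 18.3 to 36.6), where 28.9% of all 3′ UTR sites of the list had it. Only the transcript strand was searched, with the whole motif inside the window, and a match is a description and not a site of binding by itself. Of all windows of the same length in the members' 3′ UTRs, 3.24% held it. Without Btg2 the share was 12.0%, so the pooled value rested on that gene, where it was 45.9% (31.0 to 61.6) against 4.91% of its own windows. With Tob2 added the pooled share was 35.4% (26.6 to 45.2), and the values that follow leave Tob2 out. By GENCODE segments the share was 25 of 144 sites (17.4%, 12.0 to 24.4), where 28.3% of all sites had it. The pentamer ATTTA was near 23 of the 87 labelled sites (26.4%), against 36.4% of all, and near 29 of 144 by GENCODE (20.1%, 14.4 to 27.4), against 36.0% of all and 10.8% of the members' windows. The longer form TTATTTATT was near none of the 144 sites, but only 33 of the members' 24419 windows (0.135%) held it, all in Cnot6l, so nothing is read from this. The Pumilio motif TGTANATA, in 0.975% of the windows, was near none either.

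A run of 6 thymidines was the more common context by GENCODE segments. TTTTTT lay near 74 of 144 sites (51.4%, interval 43.3 to 59.4), where 31.6% of all 3′ UTR sites and 7.73% of the members' windows held it, and Pan3 gave 37 of the 74. By the authors' label it was near 29 of 87 (33.3%), against 32.0% of all sites, and all 29 were in Btg1, Btg2 and Tob1. Cnot6 and Cnot2 had no site near such a run. The 2 motifs can share a window, as at the leading Btg2 cluster. The crosslinked base was a thymidine at 73.6% of the 144 sites (65.9 to 80.1), against 65.5% of all 3′ UTR sites. Pan3 had it at 38 of its 43 sites. By the authors' label, which leaves those Pan3 sites out, the share was 69.0% (58.6 to 77.7), against 65.8% of all. Soft-masked sequence held 70.8% of the 144 sites, against 58.6% of all. Outside it, the TATTTA share of the members' labelled sites was 19.2% (8.51 to 37.9).

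**Figure D4:**
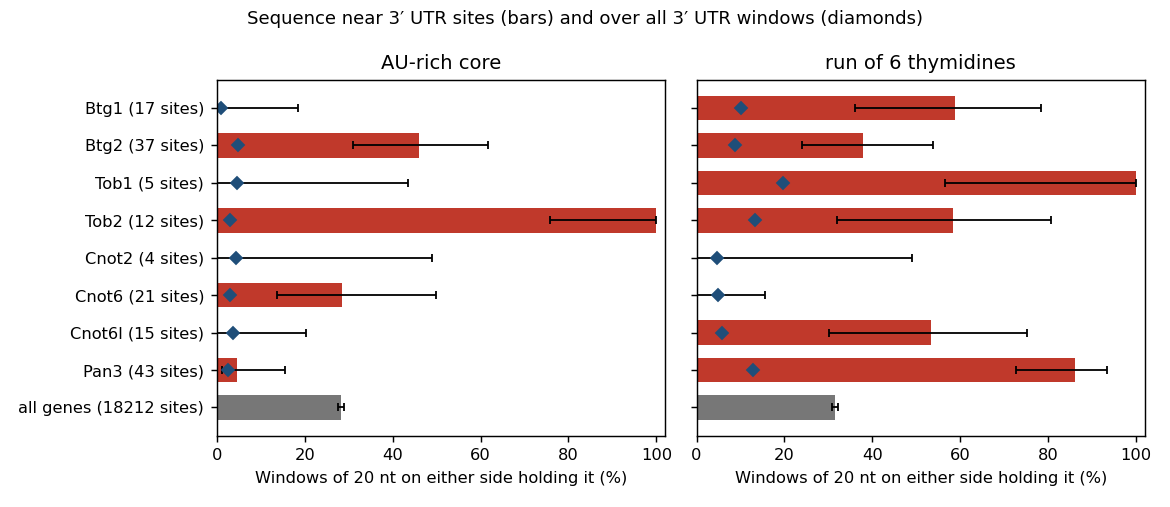
Share of 3′ UTR sites (%, horizontal axis, GENCODE segments) with TATTTA (left) or TTTTTT (right) within 20 nt, with 95% Wilson intervals, and the share of all windows of that 3′ UTR as diamonds; the grey bar is all genes. Tob2 and Btg2 lead on the left at 100% and 45.9%, and Tob1 and Pan3 on the right at 100% and 86.0%.

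Read from the elements, most TATTTA copies had no site. The 3′ UTRs of the 9 members hold 22 copies, of which 4 had a site within 20 nt (18.2%), 5 had only listed positions that were not sites, and 13 had none. Those with a site were 2 of 3 in Btg2, 1 of 3 in Cnot6 and 1 of 2 in Pan3. Tob2, outside the total, had a site at 2 of 2. The same share over TATTTA copies in the 3′ UTRs of all genes was not computed, so 18.2% cannot be called high or low.

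In introns the members had 639 sites among 1868 positions (34.2%, interval 32.1 to 36.4), where 28.8% of all intron positions were sites. The share was above that background in Cnot6l (124 of 259), Cnot2 (230 of 595) and Pan3 (189 of 587). It was below the background in Cnot1 (69 of 281), Cnot6 (20 of 114) and Cnot7 (7 of 25). An intron site was found in 6 of 9 members, all of them deadenylase genes, against 55.6% of protein-coding genes. Btg1, Btg2 and Tob1 had between 1 and 3 intron positions each and no site. Per kb of intron, Cnot2 had 10.6 counts, Pan3 8.43, Cnot1 5.63, Cnot6l 5.57, Cnot6 4.82 and Cnot7 1.95, against a median of 0.562 over 10776 genes. Btg1 had 9.47 per kb, but this rests on 5 counts. TATTTA was near 21.3% of the members' intron sites (18.3 to 24.6), against 21.8% of all intron sites, and TTTTTT near 31.6%, against 34.4%.

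The intron signal was spread over many clusters, with 1 strong cluster in Cnot6l and 1 strong position in Cnot2. Cnot2 had 57 intron clusters, Pan3 59, Cnot6l 33, Cnot1 23, Cnot6 6 and Cnot7 2. The Cnot6l cluster at chr5:96138561-96138603 held 27 sites and 110 counts, 38.2% of its intron cluster counts, and 26 of the sites were near TATTTA. It lies on a tandem array of the core, whereas no 3′ UTR core of Cnot6l had a site. This was not particular to Cnot6l. Cnot2 and Cnot7 also had no site at a 3′ UTR core, and their largest intron clusters had sites near a core. Of 124 intron sites in Cnot6l, 38 (30.6%) were near TATTTA, 26 of them in that 1 cluster. Of the 38, 28 (73.7%) were near a tandem copy. Over all genes 50.2% of the intron sites near TATTTA were near a tandem copy, and over the members 35.3%. In the Cnot6l array 25 of the 27 sites were soft-masked, where 74.2% of all intron sites were. The sequences below show that array, with each whole core that does not overlap a printed one in capitals, and then the strongest positions of Cnot2 and Pan3, with the crosslinked base in capitals.
Cnot6l intron, minus strand: ttTATTTAttTATTTAtttat
Cnot2 intron, minus strand: aataatgcccCatgattttgt
Pan3 intron, plus strand: tgaggttttcTtttttttttt

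The Cnot2 position, chr10:116521304, had a count of 34, the highest of any member, and 104 of 317824 intron positions in the list (0.0327%) had at least that. It belonged to a cluster of 8 sites and 52 counts, with a TATTTA starting 13 nt downstream. The next Cnot2 cluster held 33 counts, with a core starting 10 nt downstream of its strongest position. After it came 2 clusters of 28 counts each, with a core starting 3 and 14 nt downstream. Of 230 intron sites in Cnot2, 60 (26.1%) were near TATTTA, 8 of them in tandem (13.3%, against 50.2% over all genes). In Pan3 the strongest intron cluster, 12 sites and 39 counts at chr5:147496845-147496861, lay on a thymidine tract with no core, and 12.7% of its 189 intron sites were near TATTTA. Cnot1 had 10.1% of 69. On the opposite strand, 5330438D12Rik, annotated as a processed transcript, covers 510 of the 621 Cnot2 positions, and Zdhhc2 covers 42 of the 58 in Cnot7. Positions in the list are stranded, and those genes had 4 and 2 counts under their own names.

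**Figure D5:**
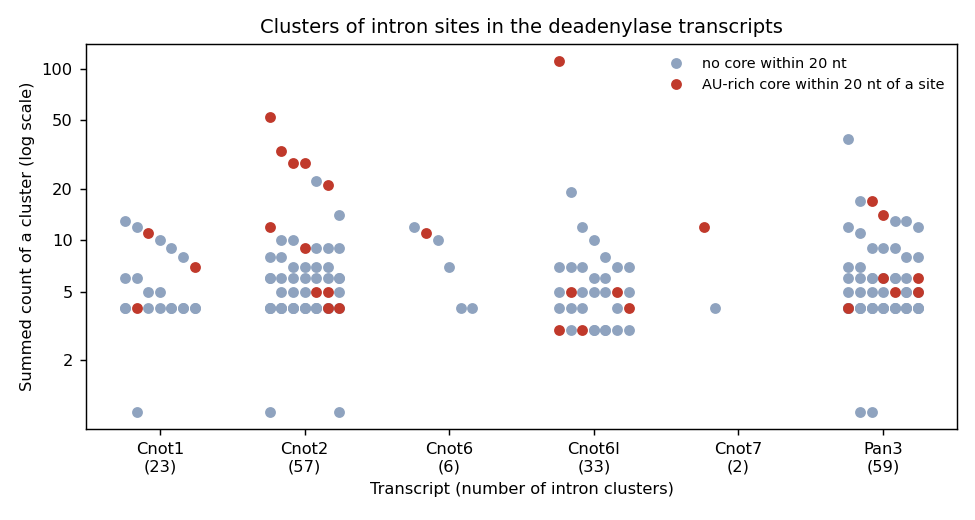
Summed count of each cluster of intron sites (vertical axis, log scale) in the 6 deadenylase transcripts, with the number of clusters under each name; red points have a TATTTA within 20 nt of a site, horizontal spread has no meaning and some points overlap. Cnot6l has 1 cluster at 110, and the 4 largest of Cnot2, led by 52, are red.

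Other genes of deadenylation and decay, from a list of 26, gave a background for the members. Positions were listed for 25, a 3′ UTR site by label for 9 and an intron site for 18, and the median number of 3′ UTR sites was 0. The 3 with the highest sum were Ddx6, a decapping activator, with 71 counts, Cnot8 with 31 and Dcp2, the decapping enzyme, with 30. Cnot8 is the paralogue of Cnot7, and 12 of its 13 3′ UTR sites were near TATTTA, whereas neither Cnot7 site in the GENCODE 3′ UTR was.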

How the data were processed

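Reads were aligned with Bowtie to GRCm38, per the submitters' processing notes; the sources used here give no versions or further steps. The deposited list gives each stranded position a count, treated here as a score because its weighting is not stated, a score summed over 15 nt, an FDR score and a p-value that the authors deposited and that was not used. Adding 1 to the listed position matched the segment label at 1030 of 1047 exon-edge positions (98.4%), and adding 0 at 17 (1.62%). The listed coordinates were therefore taken to count from 0, and those printed here, with 1 added, count from 1. Total counts per library are unknown, and the design's values per library could not be computed, so no test was run. GENCODE vM21 on GRCm38.p6 gave segments and lengths, and sequences were read with pysam 0.24.0. Scripts (Python 3.11.15) were tested on simulated data. All 10 members are named, with the 3 other pathway genes of highest 3′ UTR site count. One marker list is not reported here. Members and lists were chosen with earlier results of these data known. Alternatives were the site threshold, segment source, window, masking, weighting and members.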

Additional observations from a re-analysis of the deposited data

How the results depend on the processing

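No paired analysis was possible because the list has no library column, and for the same reason no replicate could be left out. A 3′ UTR site was found in 6 of 9 members by label, in 6 at an FDR below 0.01 and in 4 at a count of at least 3. With GENCODE segments it was found in 8, and 8 had any listed position labelled 3′ UTR. With Tob2 the numbers were 7 of 10 by label and 9 of 10 with GENCODE segments. The share of 3′ UTR sites near TATTTA, 26.4%, became 13.9% over all listed positions and 45% at a count of at least 3. Btg2 held 15 of the sites at that count, and those near the core all lay in its leading cluster. The share became 17.4% with GENCODE segments, 14.9% with a window of 10 nt and 12% without Btg2. With Tob2 it was 35.4% by label (26.6 to 45.2) and 23.7% by GENCODE segments (17.7 to 31.0). All 3′ UTR sites of the list stood at 28.9% and 28.3%. The 3′ UTR share of counts, 10.6%, became 16.1% with GENCODE segments, 6.18% without Btg2 and 11.7% with Tob2. The settings with Tob2, and GENCODE segments without Pan3, were chosen after seeing the data. Btg2's share of 3′ UTR site counts, 53.8%, became 44.8% over all positions, 77.0% at a count of at least 3 and 67.9% by the extended score. With GENCODE segments Pan3 led at 36.9%, or 34.5% with Tob2, and without Btg2, Btg1 led at 39.1%. Of 3′ UTR positions, 37.8% were sites by label and 44.6% by GENCODE. The cause of these shifts was not tested. Most counts are 1 or 2, so small clusters such as that of Tob1 rest on low counts.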
